A study of Mus musculus with 6 samples.

Results

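The 36 genes described here encode receptor chains for interleukins, colony stimulating factors, interferons and tumour necrosis factor (TNF). They were chosen by name, as the rows of the deposited gene count table whose symbol is one of 36 listed receptor symbols, out of 49997 rows. All 36 were found.

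Cytokine receptors are surface proteins that mostly work as pairs, with a private chain that binds 1 ligand and a shared chain that carries the signal for several. Most class I and class II receptors have no enzyme of their own and signal through JAK kinases and STAT factors, whereas the IL-1 and IL-18 receptors use MyD88 and the TNF receptors use TRADD and TRAF adaptors. In bone marrow these receptors mark lineage steps: the receptors for GM-CSF, G-CSF and CSF1 are known for granulocytes and macrophages, and the common gamma chain receptors for lymphocytes, while stem cells are known to respond to interferons, IL-1 and TNF.

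The libraries come from long-term haematopoietic stem cells of the bone marrow, sorted from 4-month-old C57BL/6J mice (the strain stands under genotype in the labels) into an Asrij low and an Asrij high population, with 3 libraries each. Asrij is the protein of Ociad1, found on endosomes and mitochondria. The name of the deposited table carries the tag ArjKI, which the labels do not explain, so an allele carried by the mice of both groups cannot be told from the labels. No treatment is named, and the labels do not say how Asrij was detected, which surface markers were sorted on, or whether each library came from its own mice. P-values therefore measure the spread between these libraries, which may be technical. Levels are CPM (read counts scaled to a common library size with TMM factors), and 3 values for a group are replicates 1, 2 and 3. Means are ± SD with n = 3. Fold changes are Asrij high over Asrij low on the log2 scale ± SE, and each adjusted p comes from the quasi-likelihood test of edgeR, adjusted by Benjamini-Hochberg over 21445 genes with a threshold of 0.05. A range of adjusted p is that over the 14 alternatives run for the gene.

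Library totals were 24707012 to 46240743 counts in Asrij low and 62732782 to 72855125 in Asrij high. Ociad1 was higher in Asrij high, at 80.3 ± 5.76 against 51.6 ± 5.72 CPM (log2 fold change 0.64 ± 0.16, adjusted p = 0.0115). It lost the call under library totals (adjusted p = 0.133), upper quartile factors (0.0834), or with Asrij high replicate 1 left out (0.0831), in a range of 0.00559 to 0.133. The 10 markers of stem cells and early progenitors looked at were Kit, Ly6a, Slamf1, Procr, Hlf, Mecom, Fgd5, Cd34, Cd48 and Flt3. None was at 0 in any library, and 9 were lower in Asrij high, where 17.7% of all genes tested were. The summed level of the 10 was 1322 to 1615 CPM in Asrij low and 434 to 717 CPM in Asrij high, highest in replicate 2. Asrij low replicate 3, whose top 10 genes held 19.4% of its counts (5.15% to 9.99% in the other libraries), and Asrij high replicate 2, which lay nearest to Asrij low on the first principal component, stood apart from their groups.

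Cytokine receptor genes were lower in Asrij high, with few exceptions. The filter on low counts kept 35 of the 36. Of these, 25 fell and 1 rose, where 17.7% of all genes tested fell, 21.7% rose and 39.4% changed in either direction. All Asrij high libraries lay below all Asrij low libraries for 26 of the 35, which was so for 24.8% of all genes, and above them for 1, against 30.2%. The groups were apart in either direction for 27, against 55% of all genes. The summed level of the 36 genes was 1500, 1274 and 1580 CPM in Asrij low and 761, 945 and 721 CPM in Asrij high. The median log2 fold change was -1.36, beside -0.02 over all genes tested, and 34 of the 35 had a negative value. A gene can pass the filter through Asrij low alone, and Il2ra did so. Il5ra and Il9r were above the count cutoff in 3 Asrij low and 2 Asrij high libraries, so they too depended on Asrij low to pass. Among the 29 receptor genes above the count cutoff in all 6 libraries, 22 fell and 1 rose, where 18.7% and 26.2% of the 17068 genes above it did. In bulk libraries, fewer cells of a type and less RNA per cell cannot be told apart.

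Of the 35 tested genes, 20 fell by at least 2-fold and 8 by at least 4-fold, where 14.7% and 7.9% of all genes tested did. Among the 29 above the count cutoff in all libraries, 17 and 5 did, where 14.9% and 6.39% of all such genes did. The other 3 genes with a fall of at least 4-fold lay below the cutoff in Asrij high libraries, Il2ra in all of them and Il5ra and Il9r in some. Without Asrij low replicate 3 and Asrij high replicate 2, 22 fell and 0 rose with edgeR's quasi-likelihood test. Without Asrij low replicate 1, 16 fell. Scaling by library totals moved the median of all genes to -0.29 and gave 3270 genes higher and 4856 lower in place of 4655 and 3797, and upper quartile factors gave 3447 and 5192. Under both, 29 receptor genes fell and 0 rose.

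**Figure D1:**
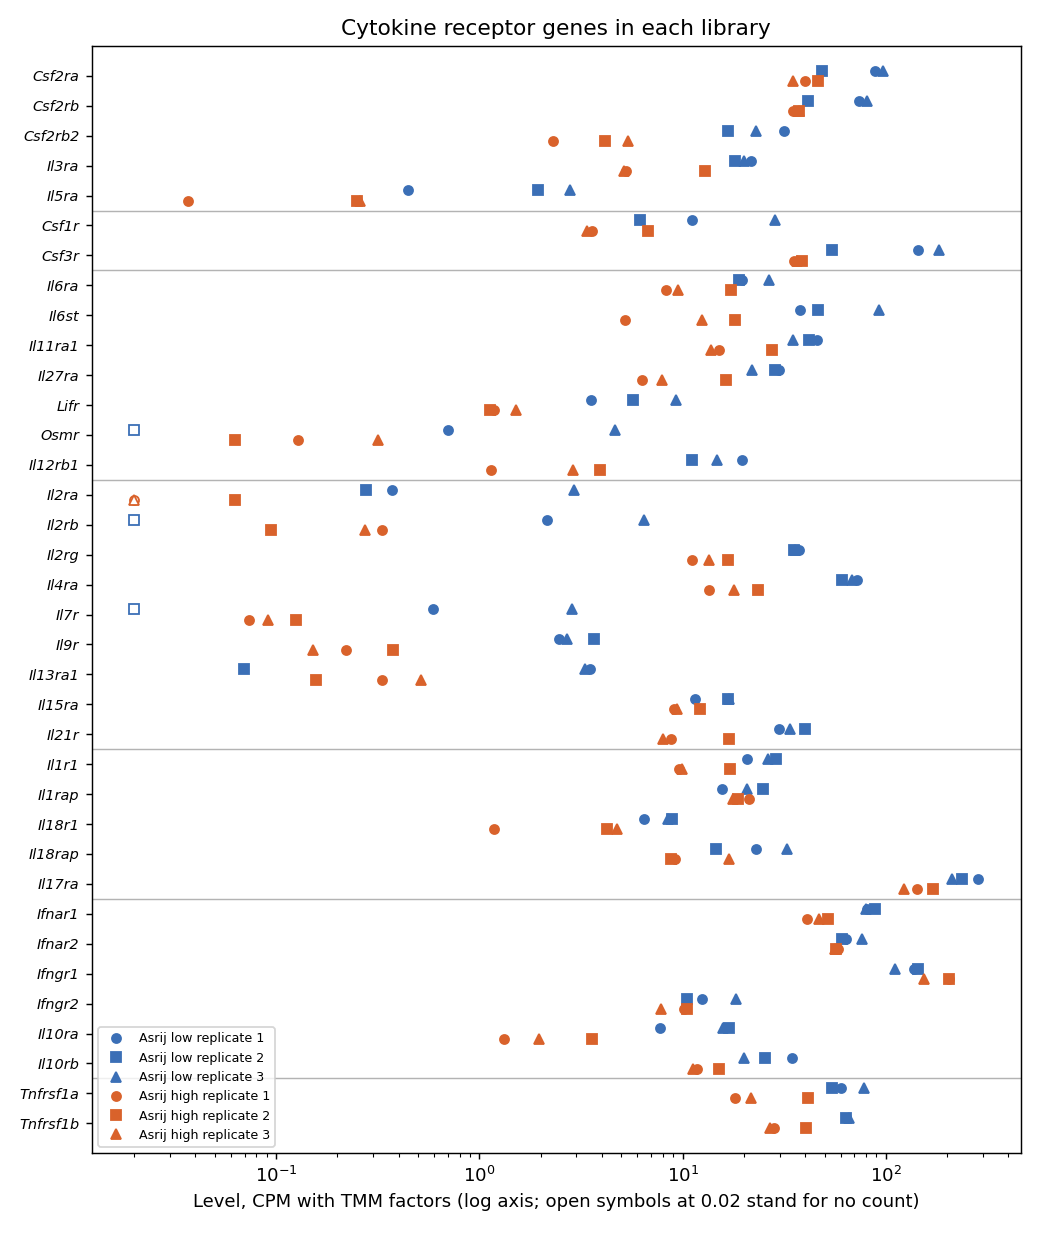
Level of each of the 36 receptor genes in each library, in CPM on a log axis, with lines between receptor families in the order of the text. Asrij low libraries are blue and Asrij high libraries orange, replicates 1 to 3 are circles, squares and triangles, and open symbols at the left mark libraries with no count. The orange points lie left of the blue ones for most genes and right of them for Ifngr1.

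**Figure D2:**
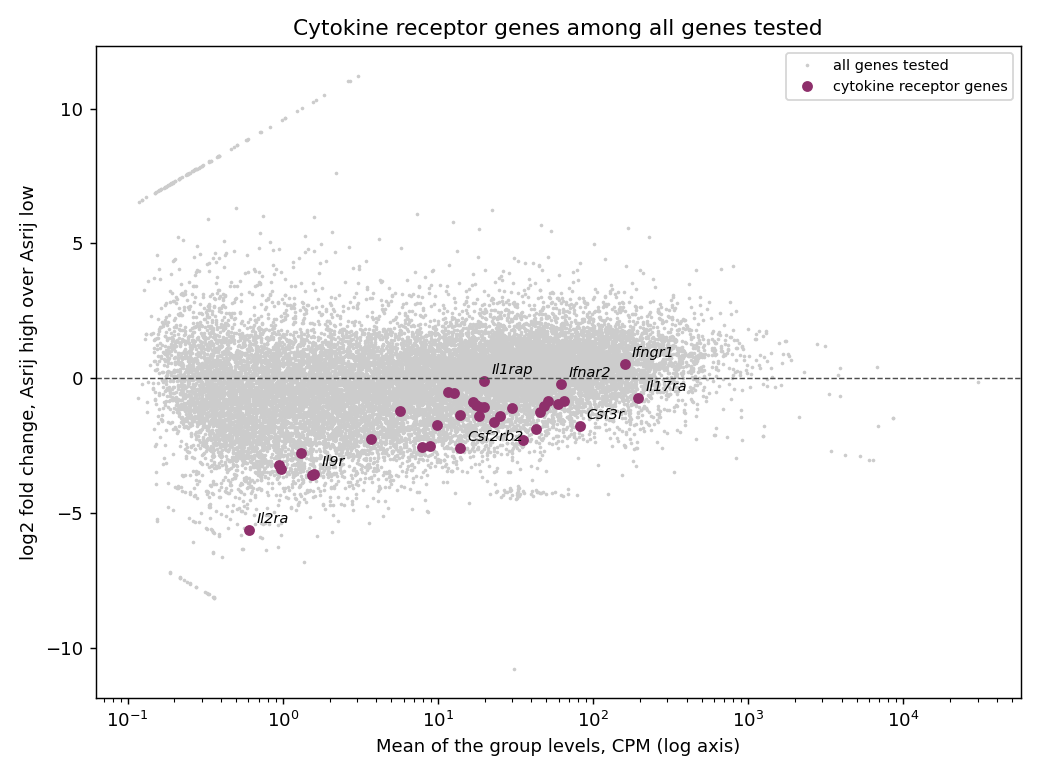
Log2 fold change of all 21445 genes tested (grey) against the mean of the 2 group levels in CPM on a log axis, with the 35 tested receptor genes in purple. All but 1 of the purple points lie below 0, while the median of the grey points is -0.02.

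Receptor genes lie in clusters on the chromosomes. By RefSeq coordinates on GRCm38.p6 (the assembly behind mm10), 14 of the 36 stand within 200 kb of another one, in 5 clusters. The interferon and IL-10 receptor genes Ifnar2, Il10rb, Ifnar1 and Ifngr2 share 191 kb of chromosome 16 (91372783 to 91564007). The IL-1 and IL-18 receptor genes Il1r1, Il18r1 and Il18rap lie at 40222480 to 40551707 on chromosome 1, and Csf2rb2, Csf2rb and Il2rb at 78282507 to 78511621 on chromosome 15. Il2ra and Il15ra (chromosome 2, 11642792 to 11733985) and Il4ra and Il21r (chromosome 7, 125552271 to 125634397) are neighbours too. In the cluster on chromosome 16, Ifnar1 and Il10rb fell, and Ifnar2 and Ifngr2 had negative log2 fold changes that did not pass the test. Differences between these genes were not tested.

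Promoter windows from RefSeq (250 bases before to 50 after an annotated start) were matched for 28 of the 36 genes, with 34 windows. The 250 bases before the start are shown for 5 genes on which the results turn: Csf2rb2 and Il4ra, which fell in each analysis run, the neighbours Ifnar1 and Ifnar2, and Ifngr1, the only gene that rose. Capitals mark matches on either strand to the letters TTCNNNGAA, the GAS-type element that STAT factors are known to bind, or GGGCGG, the GC box bound by Sp1 factors. No 2 marked matches overlap.
Csf2rb2, chr15:78305722-78305971, minus strand: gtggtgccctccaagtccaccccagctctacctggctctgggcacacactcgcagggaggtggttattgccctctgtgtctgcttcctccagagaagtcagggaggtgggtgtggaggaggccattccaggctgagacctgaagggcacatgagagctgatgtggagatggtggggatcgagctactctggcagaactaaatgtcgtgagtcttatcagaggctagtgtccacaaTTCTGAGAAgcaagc
Il4ra, chr7:125552021-125552270, plus strand: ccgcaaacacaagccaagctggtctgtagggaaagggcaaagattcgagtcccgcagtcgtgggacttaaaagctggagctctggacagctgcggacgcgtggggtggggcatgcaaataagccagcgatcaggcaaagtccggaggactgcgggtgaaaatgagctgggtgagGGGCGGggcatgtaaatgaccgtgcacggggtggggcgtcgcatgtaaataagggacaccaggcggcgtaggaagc
Ifnar1, chr16:91484965-91485214, plus strand: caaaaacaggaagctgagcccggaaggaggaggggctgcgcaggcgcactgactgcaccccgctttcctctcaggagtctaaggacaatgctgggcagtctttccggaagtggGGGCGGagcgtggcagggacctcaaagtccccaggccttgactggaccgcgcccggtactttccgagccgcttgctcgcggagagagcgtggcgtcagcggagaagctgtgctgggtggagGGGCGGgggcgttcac
Ifnar2, chr16:91372533-91372782, plus strand: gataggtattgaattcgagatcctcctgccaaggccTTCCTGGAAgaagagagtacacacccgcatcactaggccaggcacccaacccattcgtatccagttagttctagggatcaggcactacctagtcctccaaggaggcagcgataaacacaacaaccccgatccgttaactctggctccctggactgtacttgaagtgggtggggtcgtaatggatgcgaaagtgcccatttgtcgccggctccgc
Ifngr1, chr10:19591699-19591948, plus strand: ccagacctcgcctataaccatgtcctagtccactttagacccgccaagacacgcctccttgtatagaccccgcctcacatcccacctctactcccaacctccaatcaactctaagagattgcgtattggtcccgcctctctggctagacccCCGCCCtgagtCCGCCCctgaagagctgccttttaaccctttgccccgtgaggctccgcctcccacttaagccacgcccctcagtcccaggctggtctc

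Over whole 300-base windows, the letters TTCNNNGAA stood in 7 of the 34 receptor windows (20.6%) and in 8.30% of all 32851 windows. These 7 windows belong to Il18r1, Tnfrsf1b, Tnfrsf1a, Il7r, Csf2rb2, Ifnar2 and Ifnar1. GGGCGG stood in 52.9% of receptor windows and 35.7% of all windows, and the PU.1-type letters GAGGAAGT in 5.88% and 3.20%. The RUNX-type letters TGTGGT were in 20.6% and 16.8%, and the GATA-type letters AGATAA in 8.82% and 11.2%. Both strands were searched for each motif, and a match is a run of letters, not a measured binding site.

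The receptors of the common beta chain family all fell in Asrij high. They bind GM-CSF, IL-3 and IL-5, and drive the growth of granulocytes, macrophages, mast cells and eosinophils. Csf2ra, the GM-CSF binding chain (chromosome 19, 61217191 to 61228461), was at 88.8, 48.5 and 97.2 CPM in Asrij low and at 40.1, 46.6 and 35.1 CPM in Asrij high. Csf2rb, the shared signalling chain, was at 73.9, 41.6 and 81.0 CPM in Asrij low and at 34.8, 37.6 and 37.3 CPM in Asrij high. Their groups did not overlap, with Asrij low replicate 2 just above the highest Asrij high library in both, and both genes fell by similar amounts (log2 fold change -0.95 ± 0.26, adjusted p = 0.0171, and -0.84 ± 0.24, adjusted p = 0.0220).

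Csf2rb2, a second beta chain found in mice that serves IL-3 alone, fell much further. Its level was 31.4, 16.8 and 23.0 CPM in Asrij low and 2.30, 4.13 and 5.38 CPM in Asrij high (log2 fold change -2.59 ± 0.38, adjusted p = 0.00108). The lowest Asrij low library lay far above the highest Asrij high one. Il3ra, the IL-3 binding chain, was at 21.6, 18.1 and 20.1 CPM in Asrij low and at 5.27, 12.9 and 5.17 CPM in Asrij high (log2 fold change -1.36 ± 0.37, adjusted p = 0.0178). Il5ra, the IL-5 binding chain of eosinophils and some B cells, was near the detection limit in Asrij high, at 0.0367, 0.251 and 0.258 CPM, against 0.444, 1.94 and 2.78 CPM in Asrij low (log2 fold change -3.21 ± 1.004, adjusted p = 0.0306).

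Apart from Csf2rb2, the calls of this family depended on single libraries. The call of Csf2ra was lost with Asrij low replicate 1 (adjusted p = 0.0758), Asrij low replicate 3 (0.0605) or Asrij high replicate 3 (0.0539) left out, in a range of 0.0028 to 0.0758. Csf2rb lost its call when Asrij low replicate 1 (0.0918), Asrij low replicate 3 (0.0765), Asrij high replicate 1 (0.0657) or Asrij high replicate 3 (0.0507) was dropped, in a range of 0.00263 to 0.114. For Il3ra the libraries that decided were Asrij low replicate 1 (0.0640 when dropped), Asrij high replicate 1 (0.0505) and Asrij high replicate 3 (0.0522), in a range of 7.42e-04 to 0.064. Il5ra kept its call only when Asrij low replicate 1 was the library dropped: the others gave 0.0576 and 0.0884 (Asrij low replicates 2 and 3) and 0.0849, 0.0596 and 0.0644 (Asrij high replicates 1, 2 and 3), in a range of 0.00268 to 0.129, and limma-voom gave 0.0873. Csf2rb and Csf2rb2 are neighbours that share sequence: 12.3% of the 50-base stretches of Csf2rb transcripts and 18.9% of those of Csf2rb2 also occur in another gene, 892 of them shared by the pair, so their counts are uncertain to that extent.

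The receptors of the myeloid growth factors CSF1 and G-CSF fell as well. Csf3r, the G-CSF receptor of neutrophils and their precursors, was at 144, 54.4 and 182 CPM in Asrij low and at 35.5, 38.7 and 36.5 CPM in Asrij high (log2 fold change -1.78 ± 0.37, adjusted p = 0.00596). The Asrij low libraries spread widely while the Asrij high libraries were nearly equal, and the groups did not overlap. Csf1r, the receptor tyrosine kinase of macrophages (chromosome 18, 61105572 to 61131139), was at 11.2, 6.16 and 28.5 CPM in Asrij low and at 3.56, 6.72 and 3.40 CPM in Asrij high. It passed the test (log2 fold change -1.74 ± 0.54, adjusted p = 0.0300) although Asrij high replicate 2 lay above Asrij low replicate 2. With Asrij low replicate 3 left out, its log2 fold change was -0.97 (adjusted p = 0.124, in a range of 0.00311 to 0.124). Dropping Asrij low replicate 1 (0.0529), Asrij high replicate 1 (0.114) or Asrij high replicate 3 (0.104) also ended the call. Csf3r lost its call when Asrij high replicate 1 was dropped (adjusted p = 0.0559) or no count filter was used (0.069), in a range of 1.45e-05 to 0.069.

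Of the 7 chains of the IL-6 class, 6 fell and 0 rose. Il6st encodes gp130, the shared signalling chain for IL-6, IL-11, IL-27, LIF and oncostatin M. It was at 37.6, 46.5 and 92.6 CPM in Asrij low and at 5.23, 18.1 and 12.4 CPM in Asrij high (log2 fold change -2.30 ± 0.49, adjusted p = 0.00665), with no overlap. With no count filter its call was lost (adjusted p = 0.0659, in a range of 2.09e-06 to 0.0659). Il6ra, the IL-6 binding chain, differed less, at 19.6, 19.0 and 26.8 CPM in Asrij low against 8.30, 17.3 and 9.49 CPM in Asrij high (log2 fold change -0.89 ± 0.32, adjusted p = 0.0496). It stood at the threshold. Dropping any Asrij low library (0.0933, 0.0687 and 0.123 for replicates 1, 2 and 3), Asrij high replicate 1 (0.138) or Asrij high replicate 3 (0.131) ended the call, in a range of 0.00646 to 0.138.

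Lifr, the chain that pairs with gp130 for LIF, was at 3.55, 5.68 and 9.30 CPM in Asrij low and at 1.18, 1.13 and 1.52 CPM in Asrij high (log2 fold change -2.27 ± 0.47, adjusted p = 0.00488). Il12rb1, used by the IL-12 and IL-23 receptors of T and NK cells, was at 19.7, 11.2 and 14.7 CPM in Asrij low and at 1.14, 3.91 and 2.90 CPM in Asrij high (log2 fold change -2.52 ± 0.46, adjusted p = 0.00288). Both kept apart the groups in all libraries and fell in each analysis run. Il27ra, the IL-27 binding chain, was at 29.7, 28.4 and 22.0 CPM in Asrij low and at 6.30, 16.3 and 7.92 CPM in Asrij high (log2 fold change -1.39 ± 0.36, adjusted p = 0.0127). Il11ra1, the IL-11 binding chain, was at 45.9, 41.8 and 35.1 CPM in Asrij low and at 15.1, 27.4 and 13.9 CPM in Asrij high (log2 fold change -1.12 ± 0.28, adjusted p = 0.0119). Within Asrij high, replicate 2 was the highest in both. Both calls were lost when Asrij low replicate 1 was dropped (adjusted p = 0.0529 for Il27ra, in a range of 3.42e-04 to 0.0529, and 0.0539 for Il11ra1, in a range of 4.17e-04 to 0.0539).

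Osmr, the oncostatin M chain of stromal cells, had 4.63 CPM in Asrij low replicate 3, 0.703 CPM in replicate 1 and no count in replicate 2, and 0.129, 0.0628 and 0.319 CPM in Asrij high. The groups overlapped and the difference did not pass the test (log2 fold change -3.36 ± 1.51, adjusted p = 0.106). DESeq2 called it with all libraries (adjusted p = 0.0377), dropping Asrij low replicate 2 let it pass (0.0191, in a range of 0.0191 to 0.781), and dropping Asrij low replicate 3 gave a log2 fold change of -1.12. For Il11ra1, 46.3% of the 50-base stretches of its transcripts also occur in another gene, with Gm13305 sharing the most. The near-copies Il11ra2 and Gm13305 have rows of their own, with 41 to 410 and 19 to 194 counts per library against 824 to 2480 for Il11ra1.

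Receptors of the common gamma chain family, known for lymphocyte growth, were grouped with the IL-13 receptor chain Il13ra1, which is not of that family. Of these 9 genes, 5 fell, 3 did not pass the test and 1 was not tested. Il2rg, the common gamma chain itself, was at 37.4, 35.2 and 35.6 CPM in Asrij low and at 11.1, 16.6 and 13.6 CPM in Asrij high (log2 fold change -1.39 ± 0.22, adjusted p = 0.00145). Il4ra, which binds IL-4 and also serves IL-13, was at 72.1, 61.2 and 68.6 CPM in Asrij low and at 13.4, 23.6 and 17.8 CPM in Asrij high. This was the fall with the smallest p of all 36 genes (log2 fold change -1.88 ± 0.23, adjusted p = 5.38e-04), a 3.68-fold difference. Il21r, the IL-21 receptor, was at 29.9, 39.9 and 33.9 CPM in Asrij low and at 8.72, 16.8 and 8.01 CPM in Asrij high (log2 fold change -1.63 ± 0.31, adjusted p = 0.00354). These genes had no overlap and narrow spreads in Asrij low, and all 3 fell in each analysis run.

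Il9r, the IL-9 receptor of mast cells and T cells, was at 2.46, 3.67 and 2.70 CPM in Asrij low and at 0.220, 0.377 and 0.152 CPM in Asrij high (log2 fold change -3.55 ± 0.61, adjusted p = 0.00220). It too fell in each analysis run. Il15ra, which presents IL-15 to neighbouring cells, was at 11.6, 16.7 and 17.0 CPM in Asrij low and at 9.07, 12.1 and 9.40 CPM in Asrij high. The groups overlapped and the difference did not pass the test (log2 fold change -0.56 ± 0.27, adjusted p = 0.122), except under library totals (0.0416) and upper quartile factors (0.0326), in a range of 0.0326 to 0.267. Il13ra1, which binds IL-13, was at 3.50 and 3.32 CPM in Asrij low replicates 1 and 3 but at 0.0693 CPM in replicate 2, and at 0.331, 0.157 and 0.516 CPM in Asrij high (log2 fold change -2.77 ± 1.11, adjusted p = 0.0734). It passed with DESeq2 (adjusted p = 0.0246), with no count filter (0.0491) or when that replicate was dropped (0.00639, in a range of 0.00639 to 0.298).

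The chains that define IL-2 and IL-7 responses were scarcely detected. Il2ra had 20, 8 and 76 counts in Asrij low (0.370, 0.277 and 2.93 CPM) and 0, 4 and 0 counts in Asrij high, and its fitted fold change rests on those 4 counts (log2 fold change -5.63 ± 1.64, adjusted p = 0.0223). The value was -3.83 with Asrij low replicate 3 dropped (adjusted p = 0.110, in a range of 5.93e-04 to 0.110) and -8.75 with Asrij high replicate 2 dropped. Dropping Asrij high replicate 1 (0.0732) or Asrij high replicate 3 (0.0719) ended the call. Il2rb, shared by the IL-2 and IL-15 receptors of NK cells, was at 2.15, 0 and 6.45 CPM in Asrij low and at 0.331, 0.0942 and 0.273 CPM in Asrij high (log2 fold change -3.61 ± 1.42, adjusted p = 0.0720). It passed with DESeq2 (adjusted p = 0.0122) or with Asrij low replicate 2 dropped (0.00508, in a range of 0.00508 to 0.497), and had a log2 fold change of -2.27 with Asrij low replicate 3 dropped. Il7r, the IL-7 receptor of lymphoid progenitors, had 32, 0 and 74 counts in Asrij low (0.592, 0 and 2.86 CPM) and 4, 8 and 6 in Asrij high, and was left out by the filter. Asrij low replicate 2 thus had no count of Osmr, Il2rb and Il7r, where 3 counts would have been 0.104 CPM, and Asrij low replicate 3 had the highest level of 18 of the 36 genes.

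Among the IL-1, IL-18 and IL-17 receptors, 2 fell and 3 did not pass the test. Il17ra, the IL-17 receptor chain, had the highest CPM of the 36 genes in Asrij low, at 285, 236 and 212 CPM in Asrij low and 143, 171 and 122 CPM in Asrij high (log2 fold change -0.75 ± 0.19, adjusted p = 0.0114). Il1r1, the signalling IL-1 receptor, was at 20.8, 28.8 and 26.4 CPM in Asrij low and at 9.57, 17.1 and 9.89 CPM in Asrij high (log2 fold change -1.06 ± 0.29, adjusted p = 0.0164). In contrast to them Il1rap, the accessory chain that IL-1, IL-33 and IL-36 receptors share, was at 15.7, 25.0 and 20.8 CPM in Asrij low and at 21.1, 18.6 and 17.7 CPM in Asrij high. The groups overlapped and the log2 fold change was -0.10 ± 0.24 (adjusted p = 0.771).

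Il18r1, the IL-18 binding chain, was at 6.48, 8.83 and 8.49 CPM in Asrij low and at 1.18, 4.24 and 4.75 CPM in Asrij high. The groups did not overlap, yet the difference did not pass the test (log2 fold change -1.22 ± 0.50, adjusted p = 0.0777). Its partner Il18rap was at 22.9, 14.7 and 32.5 CPM in Asrij low and at 9.20, 8.76 and 17.0 CPM in Asrij high, just short of the threshold (log2 fold change -1.002 ± 0.36, adjusted p = 0.0518), and passed it when Asrij low replicate 2 (0.0279) or Asrij high replicate 3 (0.0225) was dropped. DESeq2 and limma-voom called both genes (adjusted p = 0.0329 and 0.0359 for Il18r1, 0.0233 and 0.0313 for Il18rap), in ranges of 0.0288 to 0.158 and 0.0135 to 0.311. Il1r1 lost its call when Asrij low replicate 2 (0.0531), Asrij high replicate 1 (0.0504) or Asrij high replicate 3 (0.0515) was dropped, in a range of 0.00108 to 0.0531. Il17ra lost it when Asrij low replicate 1 was dropped (0.0611, in a range of 6.23e-04 to 0.0611).

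Of the 6 interferon and IL-10 receptor genes, 3 fell, 1 rose and 2 did not pass the test. Ifngr1, the ligand-binding chain for interferon gamma (chromosome 10, 19591949 to 19610229), was the only receptor gene that rose. It was at 137, 143 and 111 CPM in Asrij low and at 206, 204 and 155 CPM in Asrij high, with no overlap (log2 fold change 0.53 ± 0.18, adjusted p = 0.0416). The size of this rise depended on scaling: the log2 fold change was 0.26 with library totals (adjusted p = 0.325) and also 0.26 with upper quartile factors (0.234), and it was positive in each analysis run. RLE size factors (0.0518) also ended the call, as did dropping Asrij low replicate 1 (0.0736), Asrij low replicate 3 (0.123), Asrij high replicate 1 (0.165) or Asrij high replicate 2 (0.070), in a range of 0.0134 to 0.325. Ifngr2, its signalling partner, had a much lower count, at 12.4, 10.5 and 18.4 CPM in Asrij low and 10.1, 10.6 and 7.84 CPM in Asrij high, and did not pass the test (log2 fold change -0.53 ± 0.29, adjusted p = 0.177).

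For the type I interferon receptor, 1 chain fell and the other did not pass the test. Ifnar1 was at 80.8, 88.8 and 80.3 CPM in Asrij low and at 41.0, 52.1 and 47.0 CPM in Asrij high (log2 fold change -0.84 ± 0.16, adjusted p = 0.00355), and fell in each analysis run. Ifnar2, the high-affinity chain, was at 63.7, 60.6 and 76.6 CPM in Asrij low and at 58.1, 56.6 and 56.4 CPM in Asrij high, a narrow gap without overlap (log2 fold change -0.23 ± 0.16, adjusted p = 0.278). It passed only under library totals (0.0351) and upper quartile factors (0.0325), in a range of 0.0325 to 0.565. Il10ra, the IL-10 binding chain, was at 7.76, 17.0 and 15.8 CPM in Asrij low and at 1.32, 3.60 and 1.97 CPM in Asrij high (log2 fold change -2.55 ± 0.47, adjusted p = 0.00283). Il10rb, shared by IL-10, IL-22 and interferon lambda receptors, was at 34.7, 25.5 and 20.04 CPM in Asrij low and at 11.7, 15.03 and 11.3 CPM in Asrij high (log2 fold change -1.08 ± 0.26, adjusted p = 0.0104). Dropping Asrij low replicate 1 ended that call (adjusted p = 0.0535, in a range of 2.79e-04 to 0.0535).

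Both TNF receptors fell. Tnfrsf1a, the widely expressed receptor with a death domain, was at 60.5, 54.1 and 78.1 CPM in Asrij low and at 18.2, 41.6 and 21.8 CPM in Asrij high (log2 fold change -1.24 ± 0.31, adjusted p = 0.0115). Tnfrsf1b, the receptor without a death domain that is known for blood and endothelial cells, was at 64.0, 63.9 and 66.2 CPM in Asrij low and at 28.2, 40.6 and 26.9 CPM in Asrij high (log2 fold change -1.02 ± 0.20, adjusted p = 0.00377). Neither overlapped, both fell in each analysis run, and in both Asrij high replicate 2 stood closest to Asrij low. The same library was the highest of the Asrij high libraries for 25 of the 36 genes.

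**Figure D3:**
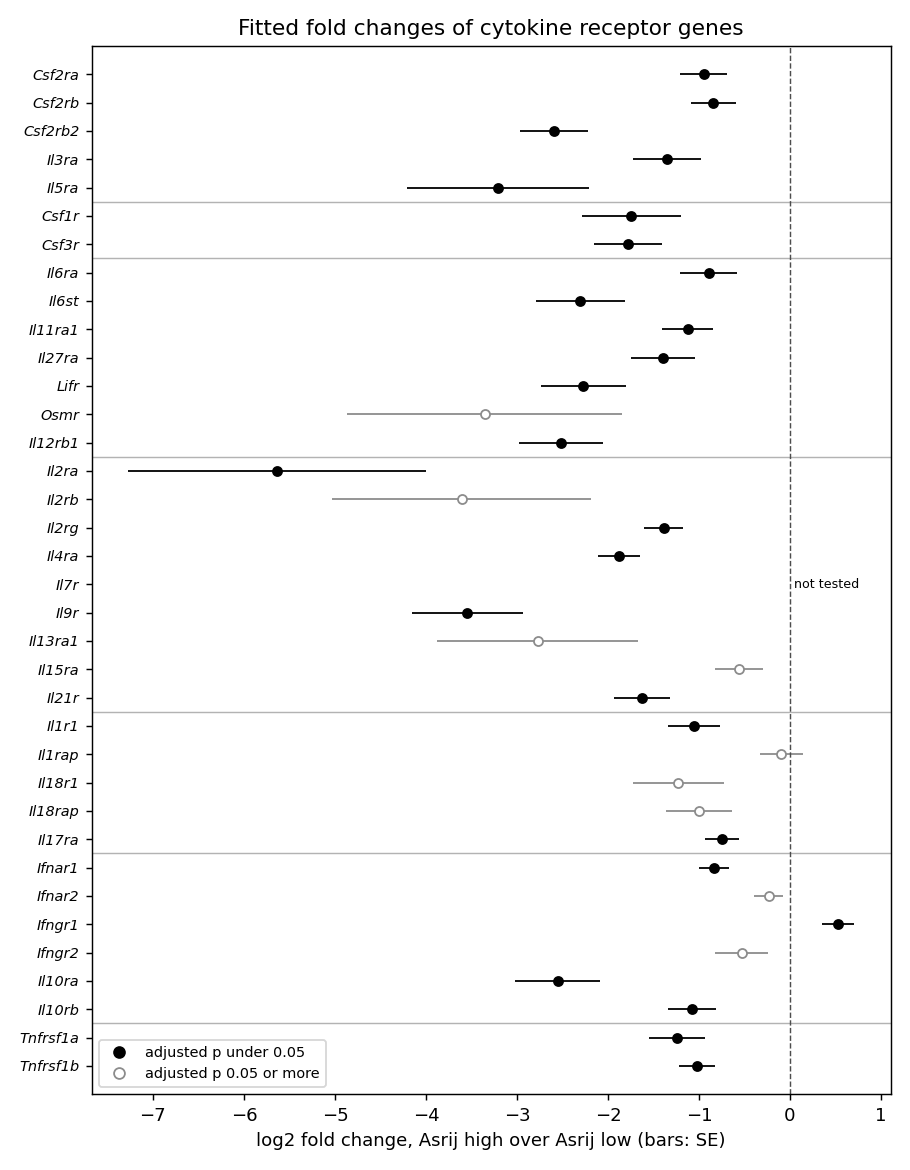
Log2 fold change, Asrij high over Asrij low, of each receptor gene, with bars for the SE and lines between families. Filled symbols are the 26 genes with an adjusted p under 0.05 (edgeR), of which only Ifngr1 lies right of 0, and open symbols are the 9 genes that did not pass.

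Levels of different genes can be compared per length. Per kilobase of merged exons (GENCODE M21), Ifngr1 was the highest of the 36 genes in both groups, at 45.9 ± 6.03 CPM per kilobase in Asrij low and 66.1 ± 10.2 in Asrij high. In Asrij low it was followed by Csf3r (35.1 ± 18.2), Il17ra (28.2 ± 4.30), Csf2ra (27.2 ± 9.06), Tnfrsf1a (24.8 ± 4.79) and Ifnar2 (20.1 ± 2.56 CPM per kilobase), and neighbours in this order differed by less than the larger of their SDs. In Asrij high the order after Ifngr1 was Ifnar2 (17.1 ± 0.270), Il17ra (16.8 ± 2.84), Csf2ra (14.1 ± 2.01), Tnfrsf1a (10.5 ± 4.87) and Csf3r (10.2 ± 0.450 CPM per kilobase), with Ifngr1 apart from the rest. Lowest in Asrij high were Il2ra (0.00367), Osmr (0.0140) and Il7r (0.0207 CPM per kilobase). All 36 genes had a mean of at least 1 CPM in Asrij low and 29 in Asrij high.

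Within a library, the count ratio of 2 chains of a receptor does not depend on scaling. For 6 ratios, chosen after the gene levels were seen, the groups were compared by a two-sided exact permutation test, whose smallest possible p with 3 against 3 libraries is 0.1. Ifngr1 to Ifngr2 was 11.1, 13.7 and 6.04 in Asrij low and 20.3, 19.3 and 19.8 in Asrij high (exact p = 0.1, adjusted over the 6 ratios 0.12). Ifnar1 to Ifnar2 went the other way, from 1.27, 1.47 and 1.05 in Asrij low to 0.706, 0.920 and 0.832 in Asrij high (exact p = 0.1, adjusted 0.12). All libraries of a group lay on the same side in both ratios, and Asrij high had more Ifngr1 count per Ifngr2 count and less Ifnar1 per Ifnar2.

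The 2 beta chains also parted. The ratio of Csf2rb2 to Csf2rb was 0.425, 0.404 and 0.284 in Asrij low and 0.0659, 0.110 and 0.144 in Asrij high (exact p = 0.1, adjusted 0.12). Csf2ra to Csf2rb, the 2 chains of the GM-CSF receptor, was 1.20, 1.17 and 1.20 in Asrij low and 1.15, 1.24 and 0.939 in Asrij high, with overlap (exact p = 0.6). Il6st to Il6ra was 1.92, 2.45 and 3.46 in Asrij low and 0.631, 1.05 and 1.31 in Asrij high, and Il1rap to Il1r1 was 0.756, 0.867 and 0.788 in Asrij low and 2.21, 1.09 and 1.79 in Asrij high (each with exact p = 0.1, adjusted 0.12). No ratio passes 0.05, which this design cannot reach.

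**Figure D4:**
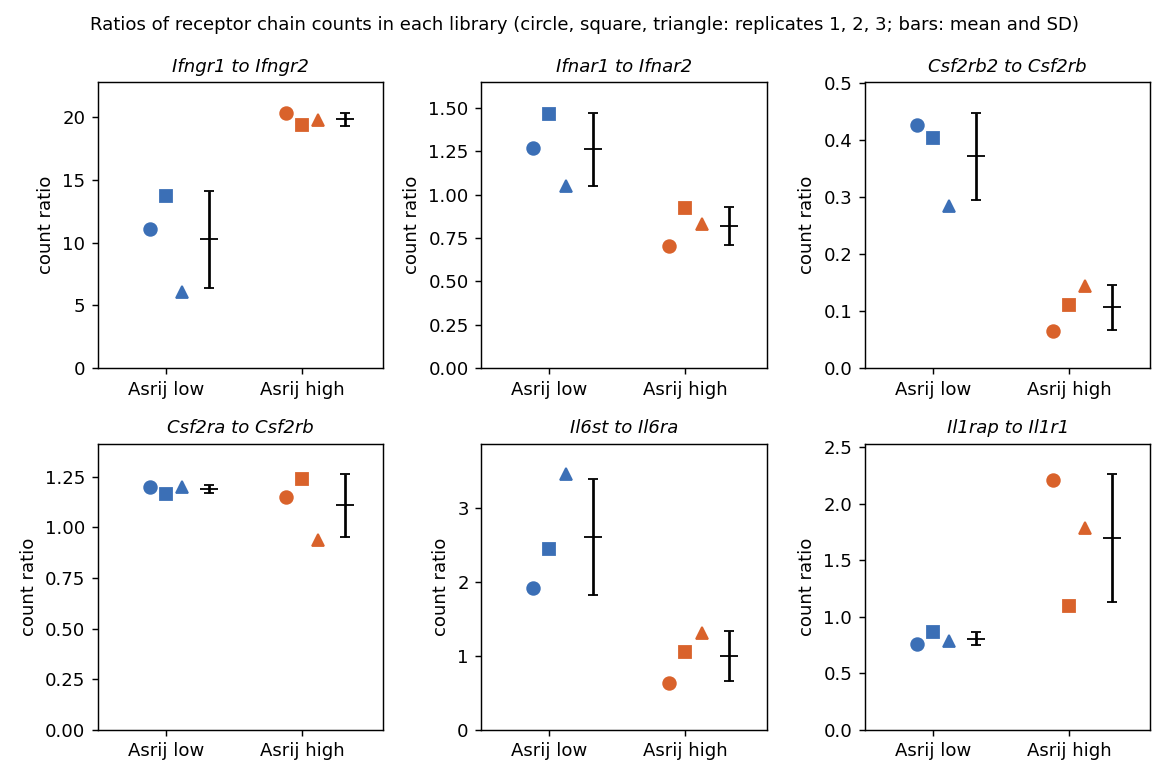
Count ratio of 6 pairs of receptor chains in each library (circles, squares and triangles for replicates 1 to 3), with the mean and SD of each group at the side. The groups are apart in 5 panels, and overlap for Csf2ra to Csf2rb.

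Other receptors of the same classes, a list of 37, fell more often than they rose. Of 32 tested, with a median of -1.13, 13 fell and 3 rose, where 17.7% of all genes tested fell and 21.7% rose. With no count filter, with the replicate number as a block, or with Asrij low replicate 1 dropped, 5 of these receptors rose. Epor, the erythropoietin receptor of red cell precursors, rose from 34.4 ± 2.08 to 153 ± 28.5 CPM (log2 2.15 ± 0.18, adjusted p = 1.98e-04). The TNF receptor family gene Tnfrsf14 rose from 121 ± 20.4 to 406 ± 112 CPM (1.75 ± 0.24, adjusted p = 8.36e-04). The third rise was that of Il1rl1, the IL-33 receptor, which signals with Il1rap, from 31.8 ± 13.5 to 105 ± 5.87 CPM (1.73 ± 0.27, adjusted p = 0.00148). The B cell survival receptor Tnfrsf13c (-3.59 ± 0.51) and the lymphocyte receptor Cd27 (-2.09 ± 0.32) fell.

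Genes for cytokines and for the signalling steps below the receptors mostly fell where they changed. Of 37 ligand genes 21 were tested, and 11 fell and 0 rose, with a median of -2.19. Over all genes tested, 17.7% fell and 21.7% rose. The highest log2 fold change of a tested ligand gene was -0.17, so none had a positive value. Some passed the filter on low counts only through Asrij low, which favours a negative value and lowers the median. Examples are Il34 (28, 19 and 36 counts in Asrij low, 0, 8 and 0 in Asrij high) and Lif (56, 32 and 26, and 14, 8 and 2). With Asrij high replicate 1 dropped, 7 ligand genes fell, and under library totals or upper quartile factors 17 fell. The ligands of receptors described above included Csf1 (log2 fold change -2.19 ± 0.34), Il15 (-2.13 ± 0.35) and the gp130 ligand Clcf1 (-2.70 ± 0.46), and Ltb (-3.01 ± 0.47) encodes a TNF family ligand. Clcf1 had a log2 fold change of -3.31 with Asrij high replicate 2 dropped. Of 35 kinases, STAT factors, adaptors and inhibitors, with a median of -0.22, 14 fell and 2 rose, beside the same 17.7% and 21.7% of all genes. The 14 held the feedback inhibitors Socs3 (-2.99 ± 0.42) and Cish (-2.62 ± 0.40), the STAT factor gene Stat3 (-1.47 ± 0.22) and the common gamma chain kinase gene Jak3 (-1.90 ± 0.33). The 2 that rose were Shc1 (0.94 ± 0.17) and Ptpn11 (0.56 ± 0.15). Another 19 did not pass the test, among them Jak1 (-0.14 ± 0.16), Jak2 (0.14 ± 0.16), Tyk2 (-0.16 ± 0.18), Stat5a (-0.05 ± 0.22) and Stat5b (-0.15 ± 0.15). With Asrij low replicate 1, Asrij high replicate 1 or Asrij high replicate 3 dropped, 1 of these 35 genes rose. Library totals and upper quartile factors also gave 1 that rose, with 17 and 20 that fell.

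Several receptors are known for mature cell types, whose marker genes also differed between the groups. Beside the counts of markers given below, 17.7% of all genes tested were lower in Asrij high and 21.7% higher. For macrophages and monocytes, 8 of 11 tested markers were lower in Asrij high, with a summed level of 177 to 516 CPM in Asrij low and 88.9 to 250 CPM in Asrij high. Neutrophil markers went both ways (3 higher and 3 lower of 12), with sums of 939 to 3942 and 3930 to 7112 CPM. The higher ones were Mpo, Elane and Prtn3, and the lower ones Mmp8, Mmp9 and Retnlg. For B and plasma cells 8 of 9 tested markers were lower (86.6 to 246 against 17.9 to 25.2 CPM). For mesenchymal cells 11 of 12 were lower (287 to 1097 against 30.8 to 80.3 CPM).

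T cell markers were lower in 3 of 5 tested cases, with sums of 17.4 to 28.5 CPM in Asrij low and 4.17 to 6.58 CPM in Asrij high. The defining T cell gene Cd3e had 0, 0 and 12 counts in Asrij low and 0, 4 and 1 in Asrij high. NK and innate lymphoid markers were lower in 1 of 5 (72.6 to 75.4 against 32.4 to 70.3 CPM), and the NK cell receptor Ncr1 had 24, 0 and 0 counts in Asrij low and 4, 1 and 10 in Asrij high. Themis (T cells), Klrd1 (NK cells), Sox17 (endothelium) and Mcpt4 (mast cells) were at 0 in all Asrij high libraries. They were also at 0 in some Asrij low libraries, with 22, 0 and 32 counts of Themis and 0, 0 and 31 of Klrd1. Sox17 had 0, 0 and 34 counts there and Mcpt4 0, 42 and 0, and none of these genes was tested. Mast cell, basophil and eosinophil markers were lower in 5 of 9 (132 to 286 against 49.2 to 85.2 CPM), and endothelial markers in 4 of 9 (58.2 to 223 against 24.7 to 36.8 CPM). Megakaryocyte markers were lower in 1 of 8 (417 to 662 against 204 to 753 CPM). Erythroid markers were higher in 5 and lower in 3 of 10 (6117 to 44322 against 3927 to 6585 CPM). Most of that sum in Asrij low came from Hba-a1 (11421 ± 10840 against 1376 ± 465 CPM) and Hbb-bs (9299 ± 8205 against 1242 ± 411 CPM). These and Alas2 were lower in Asrij high, while Car1 (75.4 ± 7.67 against 1250 ± 211 CPM), Klf1, Rhd, Ermap and Tfrc were higher. Dendritic cell markers were higher in 1 and lower in 1 of 5 (11.2 to 24.1 against 48.3 to 79.8 CPM), where Xcr1 was at 0 in all libraries. The higher dendritic sum in Asrij high came from Zbtb46 (6.66 ± 4.66 against 64.9 ± 18.6 CPM), while the other 4 tested markers had negative log2 fold changes. The part of these cell types in the receptor differences was not tested. Among the Asrij low libraries, sums of macrophage, neutrophil, mast cell group, erythroid, mesenchymal and dendritic markers were lowest in replicate 2. Those of B cell, T cell and endothelial markers were lowest in replicate 1, and that of NK markers in replicate 3. Stem cell and megakaryocyte sums were highest in replicate 2. Asrij low replicate 2 had the lowest level of 20 of the 36 receptor genes, and a link to these sums was not tested.

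**Figure D5:**
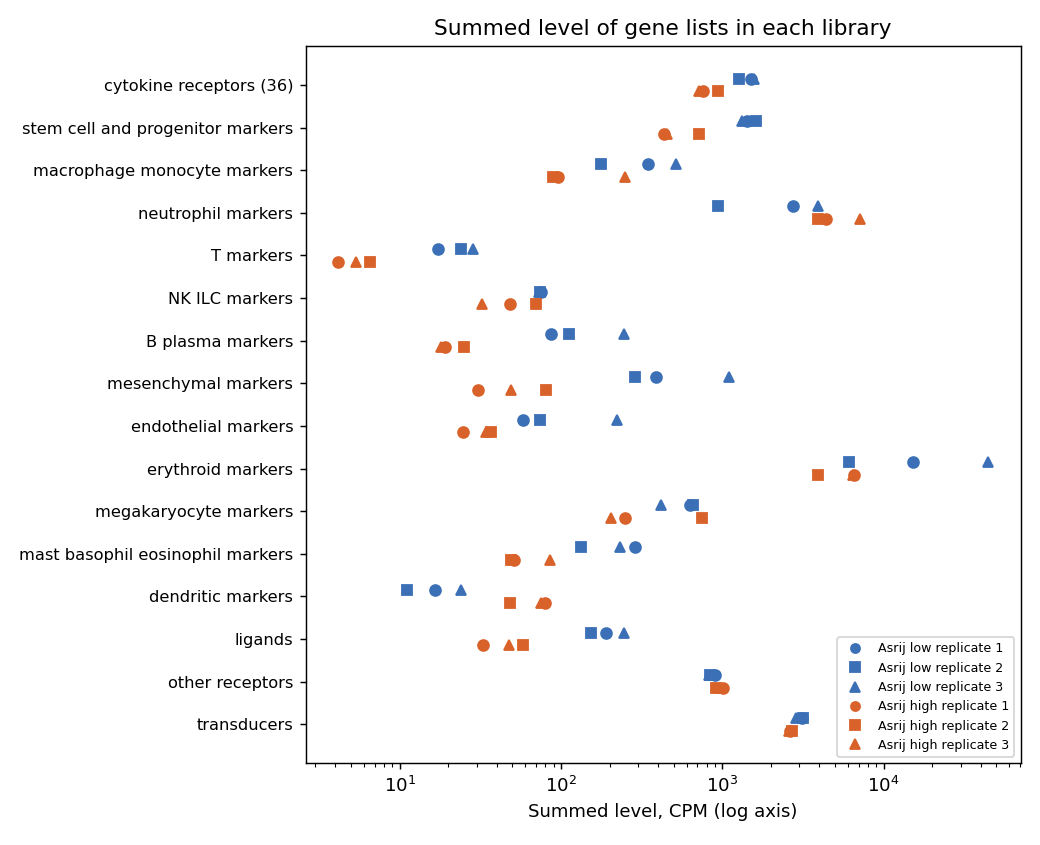
Summed level in CPM (log axis) of the 36 receptor genes and of 15 lists of marker and pathway genes in each library, Asrij low in blue and Asrij high in orange, with replicates as circles, squares and triangles. The receptor sum lies at 721 to 945 CPM in Asrij high and at 1274 to 1580 CPM in Asrij low.

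Some receptor genes share exon bases with other genes. Csf1r overlaps Hmgxb3, on the opposite strand, over 15.1% of its exon bases, Il4ra overlaps the antisense gene Gm44876 over 9.51%, and Il1rap overlaps Gm20319 over 4.86%. On the same strand, GENCODE places Gm20489 over 30.5% of Il2rg, and Gm21970 over 14.9% of Il10rb and 9.46% of Ifnar2. The strand setting of the count is not given in the sources used here, so the values of these genes are uncertain where reads were shared.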

How the data were processed

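Bulk RNA-seq of 6 libraries was analysed. The labels' protocols name an RNeasy extraction, removal of ribosomal RNA and a stranded library kit, while the molecule field says polyA RNA. The deposited table holds raw read counts per gene symbol, not normalized. The authors used FastQC, HISAT2, SAMtools and Subread with mm10, per the submitters' processing notes, with versions, annotation, strand and multi-mapping settings not given in the sources used here. Columns were tied to samples through the library names in the labels.

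Counts were tested with edgeR 4.0.16 in R 4.3.3 (TMM factors, robust quasi-likelihood fit, a model of group alone) after filterByExpr (minimum count 10, minimum total 15), with Benjamini-Hochberg adjustment. SE were derived from the quasi-likelihood statistic. Alternatives were other size factors, no filter, DESeq2 1.42.0, limma-voom (limma 3.58.1), each library left out, and the replicate number as a term. Leaving out Asrij low replicate 3 with Asrij high replicate 2 was added after seeing the data. The script was tested on simulated counts, where it recovered 9 of 98 changes of 2-fold and 51 of 90 of 4-fold, with 4 false calls. Most 2-fold changes were thus missed in that simulation, and a gene that did not pass the test is not shown to be unchanged. These were the only changed genes among 20792 tested there, whereas 39.4% of genes were called in the data. The adjustment is stricter where few genes change, so these rates do not give the power in the data. No replicate pair agreed within counting error (chi-square over degrees of freedom 82.5 to 183).

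The receptor genes and the lists were chosen with earlier results of these data known. All 36 receptor genes are given by library, and of each pathway list up to 4 genes with the smallest p. Il1rl1, Shc1, Ptpn11, Jak1, Jak2, Tyk2, Stat5a and Stat5b were named after their values were seen. One gene of these lists is not reported here. Coordinates and promoters are those of RefSeq, exon lengths and transcripts those of GENCODE M21. A total of 24707012 counts in the smallest library limits low genes most, where 3 counts are 0.116 CPM.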

Additional observations from a re-analysis of the deposited data

How the results depend on the processing

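Of the 26 receptor genes called, 11 kept their call in all 14 alternatives and 15 lost it in at least 1, and 7 of the 9 genes not called were called in at least 1. The sign turned for Il1rap alone, whose log2 fold change with 1 library left out ran from -0.22 without Asrij low replicate 1 to 0.10 without Asrij low replicate 2. With 1 library left out, the number of receptor genes lower in Asrij high ran from 16 to 27 and the number higher from 0 to 1, and over all genes 2346 to 3752 were lower and 3135 to 5183 higher. The 1 receptor gene higher in Asrij high, Ifngr1, was not called (0 higher) with RLE size factors, library totals, upper quartile factors or both doubtful libraries left out, where 26, 29, 29 and 22 receptor genes were lower. With both left out, 3925 of all genes were lower and 4442 higher. DESeq2 called 31 receptor genes lower and 1 higher, and limma-voom 26 and 1. With the replicate block, 25 receptor genes were lower and 1 higher, and over all genes 3613 lower and 4475 higher. The labels state no pairing of the numbers, and 3 libraries per group cannot settle whether there was one. Deviations of same-numbered libraries correlated at 0.01, 0.05 and 0.22, the last being the highest of all pairs. Not every library correlated best with its own number. With the block Csf1r (adjusted p = 0.0542) and Il2ra (0.0558) were not called, and Il18r1 (0.0288) and Il18rap (0.0135) were. The cause of the other changes was not tested, but an alternative without a library has fewer samples. Low counts limit Il2ra, Il7r, Osmr, Il2rb and Il5ra, which were at or near 0 in some libraries. These included Asrij high libraries, which were deeper, and each gene was highest in the smallest library, Asrij low replicate 3.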
